A study of Homo sapiens with 6 samples.

Results

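AP-1 is a dimeric transcription factor, and the genes that encode its subunits were followed here in K562, a human chronic myelogenous leukemia cell line. The members were the rows of the footprint count table whose gene symbol was FOS, FOSB, FOSL1, FOSL2, JUN, JUNB, JUND, ATF3, BATF3 or MAFF. All 10 were present, of 19330 transcripts listed. The values came from ribosome profiling (Ribo-Seq), which sequences the mRNA fragments that ribosomes protect from nuclease, so that a count on a coding sequence (CDS) reflects mRNA abundance and translation together.

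Cells had received a lentiviral CRISPR/Cas9 vector with a guide against N6AMT1 (sgN6AMT1, 3 libraries) or against the control genes OR11A1 and OR2M4, the latter written OR2M49 in the labels (sgCtrl, 3 libraries). Both groups were selected with puromycin for 48 h and analysed 10 days after infection. The labels do not say which control guide a library carried. Replicates were separate lentiviral infections, as described in the study. N6AMT1 is a methyltransferase that modifies a translation release factor. Whether depletion of N6AMT1 was accompanied by a different ribosome occupancy of the AP-1 genes is the question the comparison answers.

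AP-1 proteins share a basic leucine zipper (bZIP), in which the zipper pairs the subunits and the basic stretch contacts DNA. JUN proteins pair with themselves or with FOS proteins, whereas FOS proteins need a JUN partner. ATF3 and BATF3 pair with JUN proteins, and MAFF is a small MAF protein without a transactivation domain. Many of these genes are immediate-early genes, transcribed quickly and briefly after growth factor, cytokine or stress signals.

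AP-1 dimers bind the motif TGANTCA and the related motif TGACNTCA, and several AP-1 genes carry such motifs in their own promoters. Promoter windows of 250 bases before the RefSeq start (GRCh38.p14) were searched for these letters on both strands. RefSeq windows matched 8 of the 10 members, in 10 windows, of which 4 held a match. A match to TGANTCA was found in 6.57% of all 35116 promoter windows of that length, a match to TGACNTCA in 6.87% and either in 12.8%. The windows of the JUN family and of ATF3 are shown because these genes carry the results below, with the matched motif in capitals. For ATF3 the window before the RefSeq start at 212565407 is shown, and it stops where the listed transcript begins.
JUN, chr1:58784048-58784297 (minus strand): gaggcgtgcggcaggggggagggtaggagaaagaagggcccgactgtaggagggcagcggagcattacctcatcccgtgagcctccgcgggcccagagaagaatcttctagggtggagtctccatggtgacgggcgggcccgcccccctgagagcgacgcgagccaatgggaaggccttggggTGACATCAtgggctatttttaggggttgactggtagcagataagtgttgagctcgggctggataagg
JUNB, chr19:12791236-12791485 (plus strand): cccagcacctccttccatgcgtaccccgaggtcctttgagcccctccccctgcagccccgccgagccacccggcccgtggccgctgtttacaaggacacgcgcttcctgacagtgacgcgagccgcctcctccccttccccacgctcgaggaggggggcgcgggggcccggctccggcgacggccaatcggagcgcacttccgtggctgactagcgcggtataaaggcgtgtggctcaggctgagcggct
JUND, chr19:18281623-18281872 (minus strand): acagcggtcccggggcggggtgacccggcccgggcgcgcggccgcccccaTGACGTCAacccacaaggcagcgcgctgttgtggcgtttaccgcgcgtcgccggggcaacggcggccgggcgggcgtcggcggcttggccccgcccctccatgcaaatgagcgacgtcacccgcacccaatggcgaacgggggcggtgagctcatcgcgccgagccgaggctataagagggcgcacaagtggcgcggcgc
ATF3, chr1:212565157-212565333 (plus strand): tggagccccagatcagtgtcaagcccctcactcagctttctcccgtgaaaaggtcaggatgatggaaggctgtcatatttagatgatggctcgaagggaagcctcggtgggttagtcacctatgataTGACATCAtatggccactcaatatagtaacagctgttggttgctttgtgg
JUN and ATF3 held the same 8 letters, TGACATCA, 67 to 60 bases before the RefSeq start in JUN and 123 to 116 bases before it in ATF3. JUND held the palindrome TGACGTCA 200 to 193 bases upstream. No match to either motif lay in the windows of JUNB, FOS, FOSB and FOSL2. A MAFF window held TGACGTCA within its listed transcript. The further windows of ATF3 (RefSeq start 212615018) and MAFF (RefSeq start 38203020) held no match. A match of letters is a description and not a binding site.

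The libraries held 1821356 to 2969736 counts, and 9202 genes had enough counts to be tested with edgeR. Pairs of libraries differed by a chi-square per degree of freedom of 1.25 to 1.68 within groups and 4.89 to 7.04 across groups. The targeted gene, N6AMT1, was counted 25, 24 and 34 times in sgCtrl, and 10, 9 and 8 times in sgN6AMT1 (log2 fold change -1.51, edgeR adjusted p 6.69e-05). N6AMT1 had enough counts for the test through the sgCtrl libraries only, the group in which it was higher. Levels are given below as CPM, the counts scaled to a common library size by edgeR's trimmed-mean factors, and changes as log2 fold changes of sgN6AMT1 over sgCtrl. A gene passed the test at an adjusted p under 0.05.

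JUN, JUNB and ATF3 had more footprints in sgN6AMT1, and no member passed the test in the other direction. Of the 10 members, 5 had enough counts for the test, and 3 of these 5 passed it. ATF3 met the count filter through sgN6AMT1 only, and without it 2 of 4 passed, with a median log2 fold change of 0.49. Among all genes that reached the filter level in all 6 libraries 27.3% passed. Among all genes tested 26.9% passed in either direction, 12.9% as higher and 13.9% as lower. Values did not overlap between the groups for 3 of the 5 tested members and for 37.5% of all genes tested. Without ATF3 this held for 2 of 4 members, beside 37.9% of the genes at the filter level in all 6 libraries. The median log2 fold change was 0.84 over the 5 tested members and 0.01 over all genes tested.

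**Figure D1:**
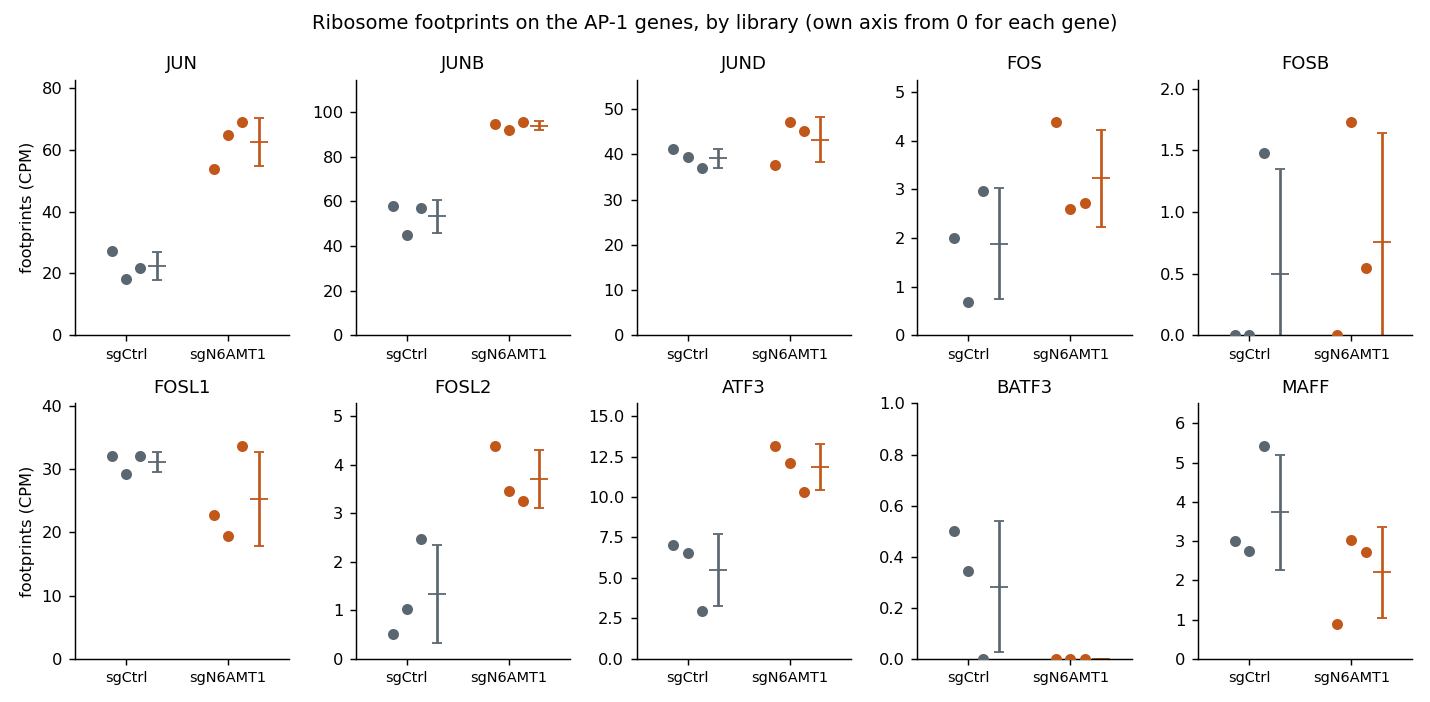
Footprints on each AP-1 gene in CPM (vertical axis, from 0 and different for each gene) in 3 sgCtrl libraries (grey) and 3 sgN6AMT1 libraries (orange). Points are libraries in the order of replicates 1 to 3, and the bar beside them is the mean with its SD. JUN, JUNB, ATF3 and FOSL2 show no overlap between the groups.

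The JUN family supplies the subunit that FOS proteins cannot do without. JUN, the best known activator among them, occupies chromosome 1, 58780791 to 58784047 (GRCh38, minus strand), as a single exon with a CDS of 993 bases. Its counts were 54, 53 and 44 in sgCtrl and 123, 150 and 127 in sgN6AMT1. In CPM this was 27.1, 18.3 and 21.7 against 53.9, 64.8 and 68.9. The lowest sgN6AMT1 library lay well above the highest sgCtrl library. Mean JUN was 22.4 ± 4.46 CPM in sgCtrl and 62.6 ± 7.76 CPM in sgN6AMT1 (SD, n = 3 each). Its log2 fold change was 1.51 (SE 0.14; adjusted p 7.60e-16 by the quasi-likelihood test of edgeR, corrected by Benjamini-Hochberg). As a fold this is 2.84, with a 95% interval of 2.34 to 3.44. Of all genes tested, 0.902% had a higher log2 fold change than JUN.

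JUNB pairs like JUN and is a weaker activator at many promoters. It lies on chromosome 19 at 12791486 to 12793315 (plus strand), also as a single exon, with a CDS of 1041 bases. The sgCtrl libraries held 115, 130 and 116 JUNB counts, against 216, 213 and 176 in sgN6AMT1, or 57.8, 44.8 and 57.2 CPM against 94.7, 92.0 and 95.5 CPM. The groups did not overlap, and the sgN6AMT1 libraries lay close together. JUNB rose 1.79-fold, from a mean of 53.3 ± 7.31 CPM to 94.1 ± 1.83 CPM (SD, n = 3 each; log2 fold change 0.84, SE 0.11, edgeR adjusted p 9.93e-10). Annotated exons of HOOK2 on the opposite strand overlap JUNB, and the use of strand in counting is not given in the sources used here, so reads of these genes may not be told apart. HOOK2 itself was counted 5, 24 and 15 times in sgCtrl, and 17, 26 and 14 times in sgN6AMT1 (log2 fold change 0.48, SE 0.31, edgeR adjusted p 0.262). The part of HOOK2 reads in the JUNB counts was not tested.

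JUND, which is expressed more steadily than the other JUN genes in many resting cells, lies on chromosome 19 at 18279694 to 18281622 (minus strand), a single exon. The counts were 82, 114 and 75 in sgCtrl and 86, 109 and 83 in sgN6AMT1. In CPM they were 41.2, 39.3 and 37.0 against 37.7, 47.1 and 45.1, so the groups overlapped. JUND did not pass the test (39.2 ± 2.11 and 43.3 ± 4.94 CPM, SD, n = 3 each; log2 fold change 0.14, SE 0.13, edgeR adjusted p 0.462). The 95% interval of its log2 fold change, -0.12 to 0.40, lies below the intervals of JUN (1.23 to 1.78) and JUNB (0.62 to 1.06). Of the 1016 windows of 26 bases in its CDS, 10 (0.984%) occur in other listed transcripts, and none of those of JUN or JUNB do.

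The make-up of the JUN family was compared as well. Counts of a gene grow with its length, so shares were taken per kilobase of CDS. JUN made up 22.3, 18.5 and 19.5% of the JUN family in sgCtrl and 29.9, 32.8 and 34.0% in sgN6AMT1. JUND made up 32.3, 38.1 and 31.6% in sgCtrl and 20.0, 22.7 and 21.2% in sgN6AMT1. The share of JUN was thus higher, and that of JUND lower, in every sgN6AMT1 library than in any sgCtrl library. JUNB held the largest share in every library, with group means of 45.9 and 46.5%. The log2 ratio of JUN to JUND in CPM went from -0.83 ± 0.26 to 0.53 ± 0.08 (SD, n = 3 each), so that JUN was below JUND in every sgCtrl library and above it in every sgN6AMT1 library. JUN over JUNB went from -1.26 to -0.60 and JUNB over JUND from 0.44 to 1.13. Each of these 3 ratios had a 2-sided exact permutation p of 0.1, the smallest that 3 against 3 allows, and 0.1 after adjustment over the 3.

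**Figure D2:**
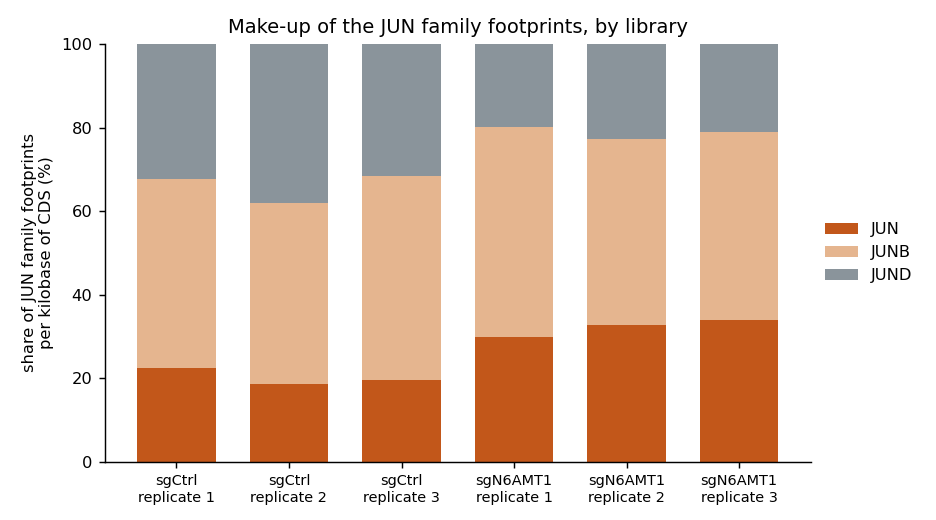
Share of JUN, JUNB and JUND in the JUN family footprints (vertical axis, percent, per kilobase of CDS) in each of the 6 libraries (horizontal axis). The JUN share lies between 18.5 and 22.3% in sgCtrl and between 29.9 and 34.0% in sgN6AMT1, and the JUND share is smaller in every sgN6AMT1 library.

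FOS proteins form more stable dimers with JUN proteins than JUN proteins form with each other. In these cells most of their footprints lay on FOSL1 (Fra-1), on chromosome 11 at 65892049 to 65900388 (minus strand). Its sgCtrl counts were 64, 85 and 65 and its sgN6AMT1 counts 52, 45 and 62, which is 32.1, 29.3 and 32.0 CPM against 22.8, 19.4 and 33.7 CPM. Replicates 1 and 2 of sgN6AMT1 lay below all sgCtrl libraries and replicate 3 above them. FOSL1 did not pass the test, with -0.32 (SE 0.16) on the log2 scale and an edgeR adjusted p of 0.138. It passed without sgN6AMT1 replicate 3 (-0.56, edgeR adjusted p 0.0135) and after removal of trends with CDS length and GC content (-0.42, edgeR adjusted p 0.0289).

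FOSL2 (Fra-2), on chromosome 2 at 28392858 to 28417317, was under the count filter. Counts of 1, 3 and 5 in sgCtrl stood against 10, 8 and 6 in sgN6AMT1, or 1.33 ± 1.02 and 3.70 ± 0.60 CPM (SD, n = 3 each), with no overlap between the groups. In a fit without the filter its log2 fold change was 1.47 (SE 0.57, edgeR adjusted p 0.0550), where 18.3% of 13622 genes passed. FOSL2 passed with total counts as scaling (edgeR adjusted p 0.0426), by limma-voom (adjusted p 0.0235) and without sgCtrl replicate 3 (log2 fold change 2.10, edgeR adjusted p 0.0226), so its call depends on the setting.

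FOS itself, the archetypal immediate-early gene on chromosome 14 at 75278828 to 75282230, was counted 4, 2 and 6 times in sgCtrl, and 10, 6 and 5 times in sgN6AMT1. The groups overlapped (log2 fold change 0.87, SE 0.55, edgeR adjusted p 0.312 in the fit without the filter). FOSB, on chromosome 19 at 45467996 to 45475179, had 0, 0 and 3 counts against 0, 4 and 1, too few for a fold. Summed over the 4 genes, the FOS family held 34.9 ± 3.96 CPM in sgCtrl and 33.0 ± 6.59 CPM in sgN6AMT1, and the JUN family 115 ± 11.9 and 199.9 ± 12.1 CPM (SD, n = 3 each). Per kilobase, JUN family footprints were 2.93, 2.63 and 2.44 times those of the FOS family in sgCtrl and 4.99, 6.33 and 4.29 times in sgN6AMT1, with no overlap.

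ATF3 is a stress-induced bZIP protein that represses as a homodimer and can act with JUN. It lies on chromosome 1 at 212565334 to 212620772 (plus strand). Footprints on ATF3 numbered 14, 19 and 6 in sgCtrl against 30, 28 and 19 in sgN6AMT1, or 7.03, 6.55 and 2.96 CPM against 13.1, 12.1 and 10.3 CPM. Every sgN6AMT1 value lay above every sgCtrl value. ATF3 rose 2.11-fold, from a mean of 5.51 ± 2.23 CPM to 11.9 ± 1.43 CPM (SD, n = 3 each; log2 fold change 1.08, SE 0.29, edgeR adjusted p 0.00224). Only 2 of the sgCtrl libraries, but all 3 of the sgN6AMT1 libraries, reached the level that the filter asks of 3 libraries, so ATF3 was tested because of the group in which it was higher. By DESeq2, where 12.4% of genes passed, ATF3 did not (log2 fold change 1.08, adjusted p 0.0695; range over its alternatives 0.00130 to 0.0695).

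BATF3, known for its role in dendritic cells, and MAFF were both scarce. BATF3, on chromosome 1 at 212686417 to 212699840 (minus strand), showed 1, 1 and 0 counts in sgCtrl, none in sgN6AMT1; a count of 0 in a library allows up to 3, so no fold is given. MAFF, on chromosome 22 at 38201932 to 38216503, was counted 6, 8 and 11 times in sgCtrl, and 2, 7 and 5 times in sgN6AMT1 (log2 fold change -0.73, SE 0.51, edgeR adjusted p 0.378 without the filter). Of the MAFF windows 0.857% are shared with MAFK, and exons of PLA2G6 overlap it on the opposite strand. Between members, the longest identical CDS run in any of 45 pairs was 21 bases, shorter than the 26-base footprints that the study's methods kept.

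**Figure D3:**
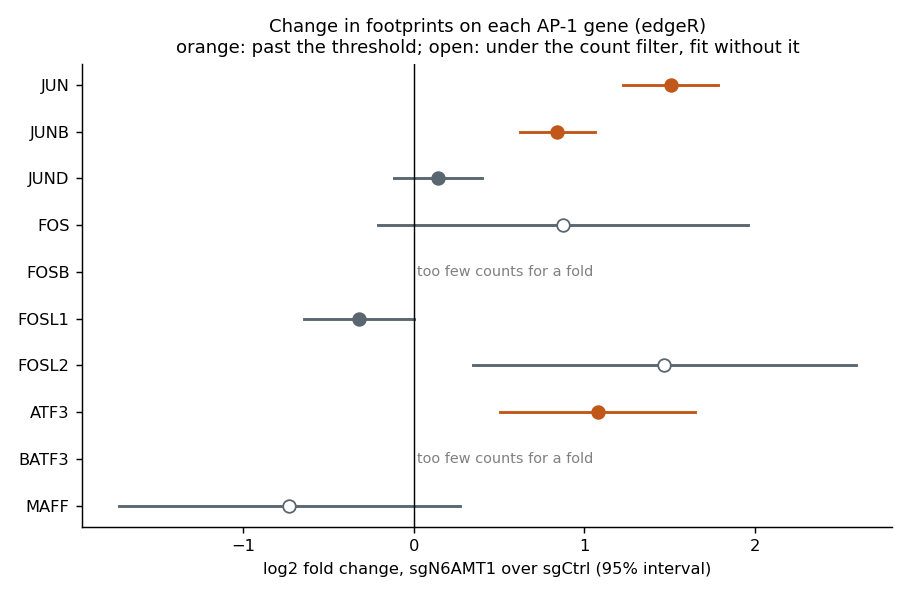
Log2 fold change of sgN6AMT1 over sgCtrl with its 95% interval from edgeR (horizontal axis) for each member (vertical axis). Filled symbols are members with enough counts and open symbols come from the fit without the filter. JUN at 1.51, ATF3 at 1.08 and JUNB at 0.84 are drawn in orange as past the threshold.

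Ordered by level per kilobase of CDS, sgCtrl cells had JUNB at 51.2 ± 7.03 CPM, FOSL1 at 38.3 ± 1.98, JUND at 37.6 ± 2.03, JUN at 22.5 ± 4.50 and ATF3 at 10.2 ± 4.10 (SD, n = 3). FOSL1 and JUND overlapped over libraries, as did ATF3 and MAFF (7.58 CPM per kilobase). FOS, FOSL2, BATF3 and FOSB were all under 2 CPM per kilobase. In sgN6AMT1 the order was JUNB at 90.4 ± 1.76, JUN at 63.0 ± 7.82, JUND at 41.6 ± 4.75, FOSL1 at 31.1 ± 9.14 and ATF3 at 21.8 ± 2.64 (SD, n = 3). JUN came after JUND in sgCtrl and before it in sgN6AMT1, where its libraries overlapped with those of neither neighbour. JUND and FOSL1 overlapped there, and so did FOSL1 and ATF3.

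Genes around AP-1 were taken from lists. Each list is described by its counts and its median, beside the 12.9% higher, 13.9% lower and median of 0.01 of all genes tested. The lists, like the members, were chosen with earlier results of these data known, so their shares are descriptive only. Kinases of the MAPK cascades phosphorylate AP-1 proteins and the factors that switch their genes on. Of 37 such genes 30 were tested, 3 passed as higher and 1 as lower, with a median log2 fold change of 0.12. MAPK8 (JNK1), a kinase that phosphorylates JUN, fell from 29.4 ± 0.70 to 15.3 ± 2.14 CPM (SD, n = 3 each; log2 fold change -0.94, edgeR adjusted p 1.74e-05). MAP2K1 (MEK1) was higher by 0.38 on the log2 scale and lost its call in some alternatives, DESeq2 among them. Over the alternatives 0 to 5 genes of the list were higher. Among 7 tested serum response and MEF2 factors (median 0.40), which drive FOS and JUN transcription, 1 passed in each direction: ELK1 was higher (0.70, edgeR adjusted p 0.0356) with overlapping groups, but lost its call in 6 of 14 alternatives (0.44 without sgCtrl replicate 2, edgeR adjusted p 0.298), and MEF2C was lower (-0.85, edgeR adjusted p 6.08e-09).

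Other bZIP factors compete for partners and sites. Of 43, 27 were tested, 8 rose and 2 fell, with a median of 0.23. BACH2, a repressor that pairs with small MAF proteins, rose from 3.65 to 10.1 CPM (log2 fold change 1.41, edgeR adjusted p 0.000341). CREM rose by 1.23 and BATF2 by 0.94 on the log2 scale. BACH2 and BATF2 met the count filter through sgN6AMT1 only and ATF5 through sgCtrl only, and without such genes 6 of 24 were higher and 1 lower. ATF5 fell by 1.35 and BACH1, the heme-sensing relative of BACH2, fell by 0.42. The calls of BATF2 and BACH1 were lost in some alternatives. Among 17 tested genes for AP-1 turnover and cofactors, with a median of -0.06, COPS5 (JAB1, a JUN coactivator) rose by 0.28 and DDB1 fell by 0.14, the latter losing its call under several alternatives.

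Immediate-early genes outside AP-1 had a median log2 fold change of 0.46, with 10 of 19 tested genes higher and 1 lower. Of the 17 at the filter level in all 6 libraries 10 were higher and 1 lower, beside 27.3% of all such genes called. All calls in the MAPK, serum response and MEF2, and turnover lists were also on genes at that level. IER3 had the log2 fold change of JUN, 1.51 (11.7 to 33.5 CPM, edgeR adjusted p 1.16e-10). KLF6 (1.43) and BTG1 (1.21) rose as well, without overlap between the groups. PPP1R15A, which encodes a phosphatase subunit of the stress response, was lower (-0.61, edgeR adjusted p 0.0168), and lost its call under some alternatives. Among 15 tested textbook AP-1 target genes 10 were higher and 2 lower, with a median of 0.37. PLAU (urokinase) rose from 7.74 to 26.7 CPM (log2 fold change 1.76, edgeR adjusted p 1.43e-10), and CCL2, not called by DESeq2, by 1.27. CCND1 (cyclin D1) fell by 1.55 and CD44, whose call was lost in 2 alternatives, by 0.55. CCL2 met the count filter through sgN6AMT1 only and CCND1 through sgCtrl only; of the 12 target genes that did so in both groups 8 were higher and 1 lower. Which of these genes AP-1 regulates in K562 cells was not tested.

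**Figure D4:**
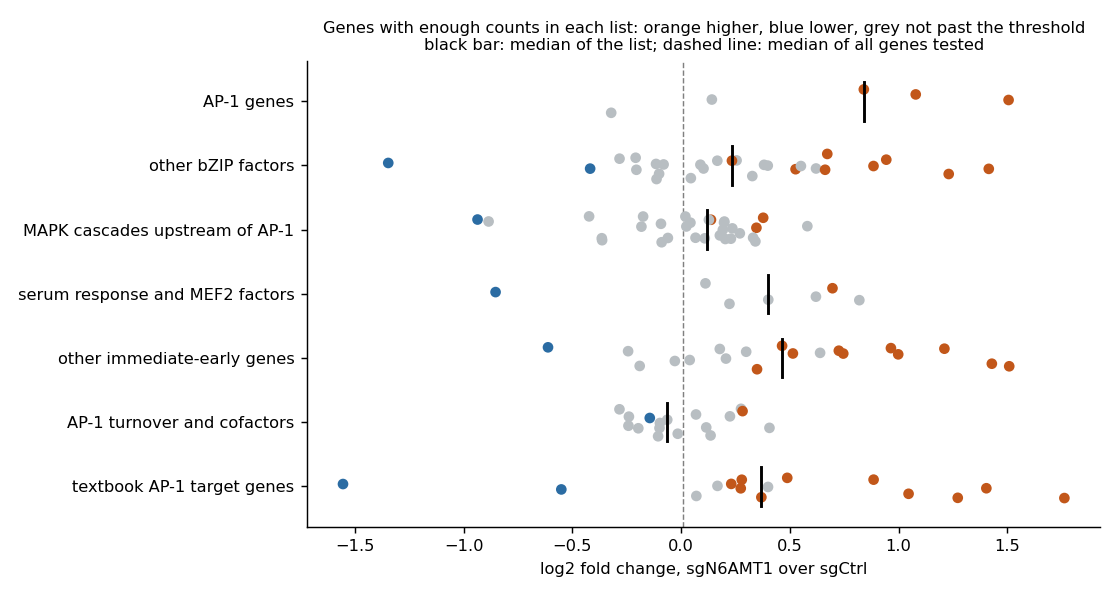
Log2 fold change of sgN6AMT1 over sgCtrl (horizontal axis) of the genes with enough counts in the AP-1 set and in 6 lists (vertical axis), with higher calls in orange, lower calls in blue and others in grey. Black bars are list medians, 0.84 for the AP-1 genes and 0.46 for other immediate-early genes, and the dashed line is the median of all genes tested. ATF3 met the count filter through sgN6AMT1 only. Over genes at the filter level in all 6 libraries these 2 medians are 0.49 and 0.46. Members and lists were chosen with earlier results of these data known.

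Marker genes of blood lineages moved with the groups beside these results. Their counts stand beside 12.9% higher and 13.9% lower among all genes tested. All 15 erythroid and K562 markers were tested, with 5 higher and 5 lower, and the sum of their levels was 31199 to 33026 CPM in sgCtrl and 32633 to 34011 CPM in sgN6AMT1. Of 11 monocyte and macrophage markers the 4 tested were all higher, and the summed level of the 11 went from 70.5 to 81.4 CPM to 198 to 207 CPM, while CD14, MRC1 and CD163 had no counts. FCGR1A among these 4 met the count filter through sgN6AMT1 only, and ITGA2B among the megakaryocyte markers through sgCtrl only. Of 12 megakaryocyte markers 5 were tested and 4 were lower, with a sum of 183 to 198 CPM in sgCtrl and 80.6 to 105 CPM in sgN6AMT1, and GP1BA, PF4, VWF and SELP were among those with no counts. At the filter level in all 6 libraries, 3 of 3 monocyte and macrophage markers were higher and 3 of 3 megakaryocyte markers lower. Of all genes at that level 27.3% passed in either direction. The 1 tested lymphoid marker did not pass, and of 2 tested epithelial markers KRT19 was higher, with no counts on KRT5. The part of these markers in the AP-1 results was not tested, and fewer cells of a kind and less RNA per cell cannot be told apart in bulk libraries.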

How the data were processed

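The deposited table held whole-number footprint counts per transcript, neither normalized nor pooled. Per the study's methods, the authors trimmed reads with cutadapt, kept footprint lengths, removed rRNA and tRNA reads with HISAT2 on GRCh38, mapped the rest to 1 canonical transcript per gene (Ensembl release 84) with Bowtie2 and assigned P-sites to the CDS. The authors also made a count over an annotation for DESeq2, and which count was deposited is not given in the sources used here. Both reflect mRNA level and translation. No molecular identifiers are described, so limits from counts cover counting error only.

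The main test ran in edgeR 4.0.16 under R 4.3.3: filterByExpr with a minimum of 10 counts (9202 genes kept, 10128 removed), trimmed-mean factors, quasi-likelihood F test (2-sided, robust), Benjamini-Hochberg adjustment over all genes tested and a threshold of 0.05. Alternatives were DESeq2 1.42.0, limma-voom (limma 3.58.1), other scalings and filters, a replicate block and fits without each library. A fit with loess trends (span 0.5) on CDS length and GC content removed was added after seeing the data. Exact permutation tests used scipy 1.17.1. Members under the filter were tested only in a fit of all genes with at least 1 count. Locations and CDS came from GENCODE release 44 (17687 transcripts matched, 91.5%) and promoters from RefSeq. The edgeR and DESeq2 steps were tested on simulated data. The text names all 10 members, N6AMT1 and, per list, up to 3 genes with the largest increase and 3 with the largest decrease among calls whose mean reached 5 CPM; some genes that this rule picks are not reported here. Members and lists were chosen with earlier results of these data known.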

Additional observations from a re-analysis of the deposited data

How the results depend on the processing

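JUN (log2 fold change 1.35 to 1.65) and JUNB (0.71 to 0.90) kept their direction and passed the threshold in all 15 alternatives, and JUND (0.07 to 0.24) passed in none. Among the 5 members with enough counts in the main test, the number higher was 3, except for 2 under DESeq2 and 2 with a mean of at least 50 counts, where ATF3 was not tested. It was 3 to 3 over the fits that left out 1 library. FOSL2, outside these 5, also passed as higher in fits without the filter: with total counts as scaling, by limma-voom and without sgCtrl replicate 3. Among the same 5 members the number lower was 0, but 1 (FOSL1) after removal of trends on CDS length and GC content. It was 0 to 1 over the fits without 1 library, with FOSL1 called without sgN6AMT1 replicate 3. FOSL1 ranged from -0.56 to -0.16, and ATF3 from 0.82 to 1.25. FOS (0.38 to 1.35) and MAFF (-1.08 to -0.35) passed in no alternative. No result reversed.

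Over all genes the count was 2473, 1329 by DESeq2 (588 higher and 741 lower) and 1859 to 2322 over the fits without 1 library. With total counts the median gene shifted by 0.05 and 38.5% of calls were lower, against 51.8%. Replicate numbers did not pair the libraries (correlations of same-numbered deviations -0.061, 0.020 and 0.016). With the replicate number as a block 2390 genes passed, and 3 members were higher and 0 lower; the block changed no call of a member or of a list gene named here as called. Over the alternatives the lists gave 3 to 10 higher and 1 to 3 lower for other bZIP factors, 0 to 5 higher and 1 lower for MAPK cascades upstream of AP-1, 0 to 3 higher and 1 lower for serum response and MEF2 factors, 5 to 11 higher and 0 to 2 lower for other immediate-early genes, 1 to 2 higher and 0 to 3 lower for AP-1 turnover and cofactors, 7 to 11 higher and 1 to 2 lower for textbook AP-1 target genes. These ranges mix fits with different numbers of genes tested. With a mean of at least 50 counts, 9 rather than 15 target genes and 12 rather than 27 other bZIP factors were tested. Of the serum response and MEF2 factors 1 rather than 7 was tested there. Counts of 10 or fewer per library limit FOS, FOSB, BATF3 and FOSL2.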

Other observations

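Further genes of the lists passed the test outside the naming rule and were chosen after their values were seen. Among immediate-early genes, IER5 rose by 1.00 (44.8 to 87.5 CPM), PLK3 by 0.96, BTG2 by 0.75, SGK1 by 0.73, IER2 by 0.46 (88.0 to 121 CPM) and GADD45A by 0.35 on the log2 scale. EGR1, a zinc finger factor induced together with FOS by growth signals, was higher by 0.51 (28.5 to 39.9 CPM, edgeR adjusted p 0.0163) with overlapping groups. By DESeq2, PLK3, BTG2, SGK1, GADD45A and EGR1 did not pass.

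Among textbook AP-1 target genes, FTH1, the ferritin heavy chain, rose by 0.88 (91.6 to 171 CPM), PLAUR, the urokinase receptor, by 1.05, TIMP1 by 0.49 and VIM by 0.37 on the log2 scale. Among other bZIP factors, ATF4, a regulator of the integrated stress response, rose by 0.53 (25.5 to 37.1 CPM), CEBPD by 0.88 and CREB3L2 by 0.66. PLAUR, ATF4 and CEBPD did not pass by DESeq2.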
